A study of Mus musculus with 10 samples.

Results

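The nuclear-encoded subunits of respiratory complex I were taken as all protein-coding genes whose symbol in the GRCm38 annotation starts with Nduf, followed by a, b, c, s, v or ab and a digit, which leaves out the Ndufaf assembly factors. The rule found 38 genes among the 54838 listed in the count files. Of these, 37 passed the expression filter, CPM (counts scaled for sequencing depth, with TMM factors) above 1 in at least 2 libraries, and entered the test among 16806 genes. The 38th, Ndufa4l2, did not pass the filter and had at most 12 counts in any library. No member passed the filter through 1 group alone, since the lowest value of any of the 37 in any library was 9.11 CPM.

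Complex I (NADH:ubiquinone oxidoreductase) is the entry point of electrons from NADH into the mitochondrial respiratory chain and couples their passage to ubiquinone with proton pumping across the inner membrane. Its N module oxidizes NADH, its Q module hands the electrons to ubiquinone, and a proximal and a distal membrane arm carry the pumps. A small catalytic core, partly encoded by the mitochondrial genome (the mt-Nd genes), is surrounded by supernumerary subunits that are all encoded in the nucleus, and neurons rely on this chain for most of their ATP.

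The libraries came from TRAP (translating ribosome affinity purification), in which ribosomes carrying EGFP-tagged L10a are precipitated together with the mRNA they are translating. All 10 libraries came from male C57BL/6 mice of the genotype Drd2-Cre;Eef1a1LSL.eGFPL10a/+, about 10 weeks old, in which Cre driven by Drd2 switches on the tagged ribosomal protein. The 5 Dorsal libraries came from the dorsal and the 5 Ventral libraries from the longer ventral part of the hippocampus, both labelled as mossy cells, the excitatory neurons of the dentate hilus. The labels name no treatment, each precipitate pooled the tissue of 5 mice, which makes a pool the replicate, and the ventral subiculum was dissected away. The study divided each hippocampus into both parts, and its numbers of mice and pools imply that both groups drew on the same mice. Which Dorsal pool matches which Ventral pool is not stated in the labels. According to the study the tag was also seen in scattered GABAergic interneurons outside the hilus and in ventral subicular neurons, of which some may remain after dissection, so that the libraries represent a population enriched for mossy cells and not mossy cells alone.

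Counts on genes ranged from 11138676 to 20594364 per library, and 3 counts, the lowest level taken as detectable, correspond to 0.146 to 0.269 CPM of the unscaled libraries. In bulk libraries like these, fewer cells of a type and less RNA per cell cannot be told apart. The mossy cell markers were all detected, and their summed level was 1849 ± 112 CPM (SD, n = 5) in the Dorsal and 1948 ± 139 CPM in the Ventral libraries. Single markers differed in both directions, with 2 of the 8 lower and 3 higher in the Dorsal libraries at an adjusted p below 0.05. Calb2, which encodes calretinin, differed most (65.04 against 615 CPM, log2 fold change -3.24, adjusted p = 1.06e-08). Gria2, the largest part of either sum, went the other way (1141 against 649 CPM, log2 fold change 0.81, adjusted p = 7.1e-05). The similar sums thus hold opposite differences and do not show an equal content of mossy cells. Interneuron markers summed to 3759 ± 470 CPM in the Dorsal and 4510 ± 548 CPM in the Ventral libraries (two-sided exact permutation test, p = 0.0635). Most of this sum was Gad2, a GABA-synthesizing enzyme, which did not pass the adjusted p (log2 fold change -0.15, adjusted p = 0.324). Of the 8 interneuron genes, 5 were lower in the Dorsal libraries at an adjusted p below 0.05, against 14.6% of all tested genes. Oligodendrocyte markers differed more, with 2100 to 2480 CPM in the Dorsal against 724 to 1376 CPM in the Ventral libraries (two-sided exact permutation test, p = 0.00794). The summed astrocyte markers were 170 to 230 CPM in the Dorsal and 61.7 to 185 CPM in the Ventral libraries (p = 0.0238, same exact test). At an adjusted p below 0.05, 3 of the 5 astrocyte genes were higher and 1, Aldh1l1, was lower in the Dorsal libraries. Aldh1l1 was at 1.17 against 4.15 CPM (log2 fold change -1.72, adjusted p = 0.0164). Of all tested genes, 19.0% were higher and 14.6% lower. None of the 5 markers of either list was at 0 in the group means. The share of read pairs outside annotated genes was also higher in the Dorsal libraries, 27.0 ± 5.09% against 14.4 ± 2.997% (exact permutation p = 0.00794). The part of these differences in the results below was not tested.

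Transcripts of complex I subunits were lower in the Dorsal than in the Ventral libraries. Summed over the 38 genes, they took 2976 to 3127 CPM of the Dorsal libraries (3031 ± 57.5, SD, n = 5) and 4454 to 4696 CPM of the Ventral libraries (4594 ± 112), and no Dorsal library reached the level of any Ventral library. All 37 tested members had a negative log2 fold change (Dorsal over Ventral), from -0.99 for Ndufs7 to -0.21 for Ndufb3, with a median of -0.64 beside -0.0044 over all tested genes. Among all 16806 tested genes, 8464 had a negative value.

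By edgeR's quasi-likelihood test, 34 of the 37 members were lower in the Dorsal libraries at a Benjamini-Hochberg adjusted p below 0.05, against 14.6% of all tested genes. A gene was called ventral-enriched where, in addition, the log2 ratio of mean CPM plus 1 was below -0.58, about 1.5-fold. This held for 22 members, against 9.85% of all tested genes, and no member was dorsal-enriched, against 15.7%. Since all 37 values were negative, none could be higher in the Dorsal libraries at an adjusted p below 0.05, against 19.0% of tested genes. The same holds without adjustment and with DESeq2, where all 37 were negative too. In 26 members every Dorsal library lay below every Ventral library, against 8.36% of tested genes. The 3 members that did not pass the adjusted p were Ndufs1, Ndufa5 and Ndufb3. The direction of every one of the 37 was kept under all 24 alternatives of normalization, filter, test and left-out library.

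**Figure D1:**
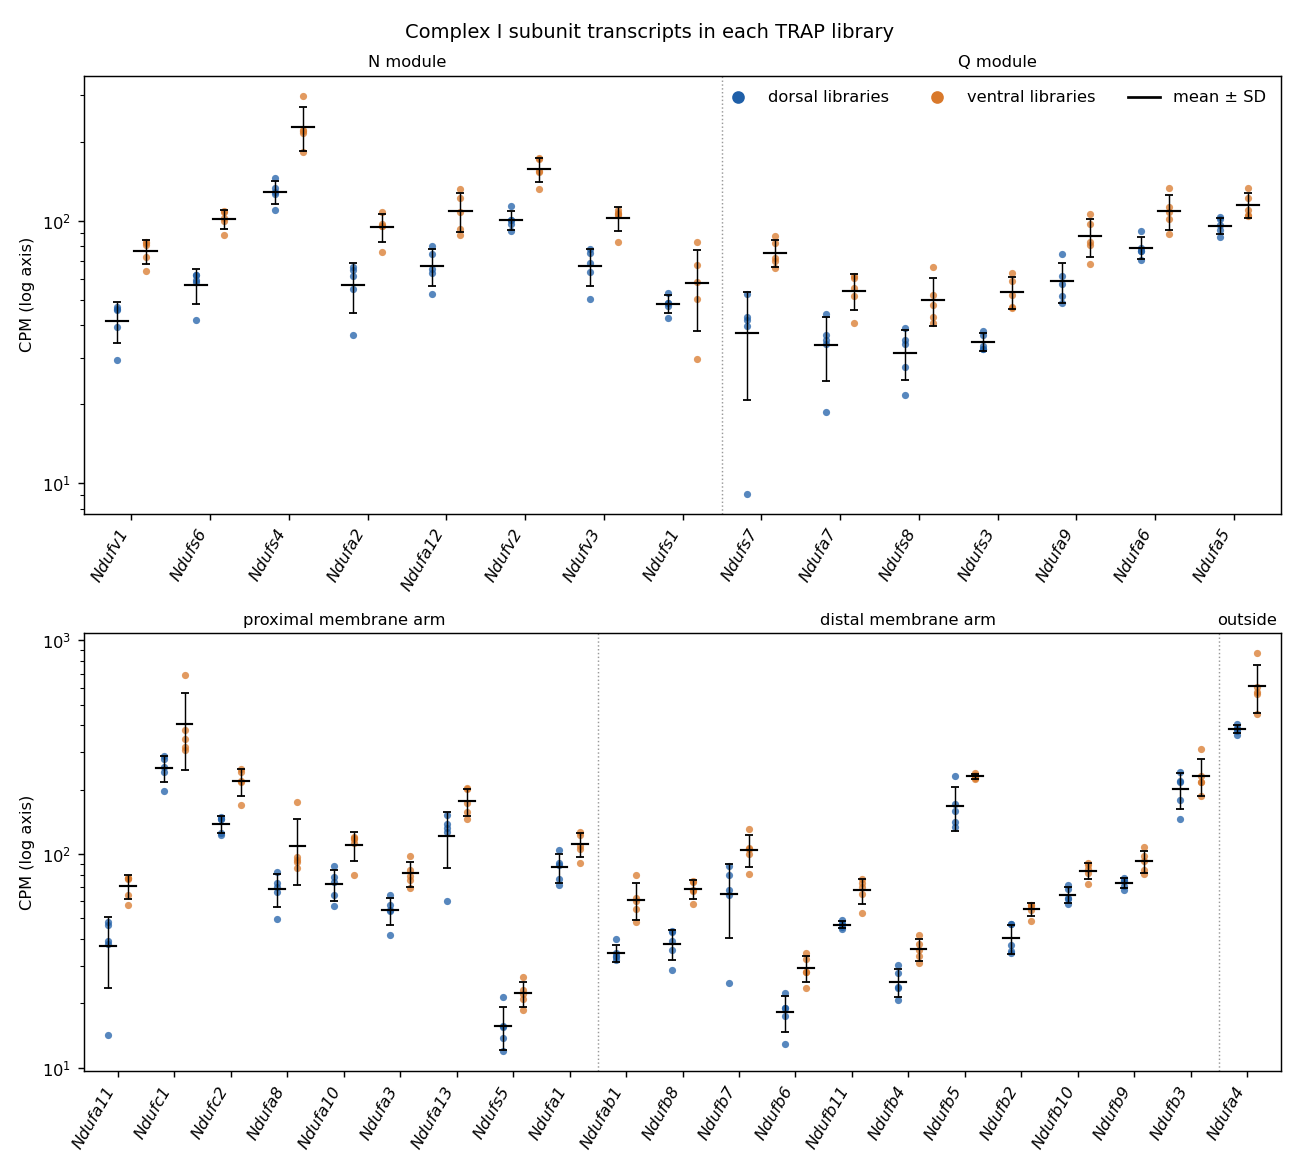
CPM (log axis) of 36 tested complex I subunits in each of the 5 Dorsal (blue) and 5 Ventral (orange) libraries, ordered by module, with horizontal lines at the mean and error bars of 1 SD. In 25 of the 36 genes all blue points lie below all orange points, and isolated low blue points such as that of Ndufs7 at 9.11 CPM belong to Dorsal replicate 1.

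In the N module, the tip of the complex that binds NADH, all 8 members had a negative log2 fold change, 7 of them at an adjusted p below 0.05, and the same 7 were called ventral-enriched (median log2 fold change -0.70). Ndufv1 (ENSMUSG00000037916, chr19:4007384-4012806, minus strand), which holds the flavin that takes up electrons from NADH, was at 29.5, 39.2, 46.7, 46.3 and 45.6 CPM in Dorsal replicates 1 to 5 and at 72.7, 80.9, 64.4, 82.7 and 82.4 CPM in Ventral replicates 1 to 5. Its groups did not overlap, and the log2 fold change was -0.88 ± 0.14 (SE, adjusted p = 0.000494). Its partner Ndufv2, which carries an iron-sulfur cluster next to the flavin, was at 114, 100.3, 101, 97.4 and 91.4 CPM in the Dorsal and 174, 172, 132, 153 and 154 CPM in the Ventral libraries, again without overlap (-0.64 ± 0.11, adjusted p = 0.000714). Ndufs1, the largest core subunit, which passes the electrons on through further iron-sulfur clusters, did not pass the test. It was at 48.7, 47.5, 53.3, 42.7 and 48.5 CPM in the Dorsal and at 82.7, 67.9, 29.7, 58.2 and 50.4 CPM in the Ventral libraries. The Ventral values spread on both sides of the Dorsal ones, with Ventral replicate 3 the lowest and Ventral replicate 1 the highest of the 10 (-0.27 ± 0.20, adjusted p = 0.316). Without Ventral replicate 3 the log2 fold change was -0.43 and passed the adjusted p (0.0406), and without Ventral replicate 1 it was -0.10.

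All 5 supernumerary members of the N module were called. Ndufs4, a late-joining subunit whose loss causes Leigh-like encephalopathy in mice, was at 146, 133, 109.6, 127 and 129 CPM in the Dorsal and 222, 215, 299, 182 and 221 CPM in the Ventral libraries (-0.82 ± 0.13, adjusted p = 0.000508). Ndufs6, which binds zinc, was at 41.9, 59.3, 62.3, 58.4 and 62.03 CPM in the Dorsal and 108, 103, 88.4, 109 and 99.99 CPM in the Ventral libraries (-0.83 ± 0.12, adjusted p = 0.000333). Neither overlapped between the groups, although Dorsal replicate 1 was well below the other Dorsal libraries for Ndufs6. Ndufa2, which has a thioredoxin-like fold, was at 36.5, 65.04, 66.5, 54.9 and 61.7 CPM in the Dorsal and 76.04, 97.4, 95.7, 95.8 and 108 CPM in the Ventral libraries (-0.72 ± 0.15, adjusted p = 0.00328). Ndufa12, a relative of the assembly factor Ndufaf2 that takes its place in the mature enzyme, was at 63.01, 80.3, 74.9, 52.4 and 65.7 CPM in the Dorsal and 93.4, 132, 108, 122 and 88.02 CPM in the Ventral libraries (-0.68 ± 0.15, adjusted p = 0.00345). Both genes were separated between the groups, Ndufa12 by the narrower gap. Ndufv3, an accessory subunit near the flavin site, was at 50.2, 75.6, 77.8, 63.7 and 68.8 CPM in the Dorsal and 107, 106, 82.9, 105 and 109.7 CPM in the Ventral libraries (-0.60 ± 0.13, adjusted p = 0.00382). Its groups did not overlap, but its log2 ratio of -0.59 lay just past the limit, and its ventral-enriched call was lost in 10 of the 24 alternatives, among them without Dorsal replicate 1 (-0.52).

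In the Q module, where electrons reach ubiquinone, all 8 members had a negative log2 fold change, 7 at an adjusted p below 0.05 and 5 called ventral-enriched (median -0.64). Ndufs7 (ENSMUSG00000020153, chr10:80249121-80256794, plus strand), which holds the last iron-sulfur cluster before ubiquinone, had the largest fold change of the 37. It was at 9.11, 41.7, 52.6, 39.8 and 42.9 CPM in the Dorsal and 66.2, 81.9, 70.03, 87.5 and 72.3 CPM in the Ventral libraries (-0.99 ± 0.26, adjusted p = 0.0105). The groups did not overlap, but Dorsal replicate 1 stood far below the other Dorsal libraries, and without it the log2 fold change was -0.77 and those of Ndufab1 (-0.90), Ndufs4 (-0.87) and Ndufv1 (-0.79) were larger.

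Ndufs3, a core subunit that carries no cluster, was at 33.3, 36.6, 38.1, 32.5 and 32.5 CPM in the Dorsal and 47.1, 52.02, 46.7, 58.7 and 63.4 CPM in the Ventral libraries (-0.64 ± 0.13, adjusted p = 0.00253). Ndufs8, the ferredoxin-like core subunit, was at 21.6, 27.8, 33.9, 38.8 and 35.1 CPM in the Dorsal and 40.8, 66.6, 42.8, 47.7 and 52.1 CPM in the Ventral libraries (-0.65 ± 0.17, adjusted p = 0.0124). Both were separated between the groups, Ndufs8 only narrowly, since its highest Dorsal and lowest Ventral library were at 38.8 and 40.8 CPM. The call of Ndufs3 was lost without Ventral replicate 4 (-0.60) or 5 (-0.56), and that of Ndufs8 without Dorsal replicate 1 (-0.55) or Ventral replicate 2 (-0.53). Ndufa7, a supernumerary subunit of this module, was at 18.7, 36.7, 43.9, 33.9 and 35.1 CPM in the Dorsal and 55.2, 51.8, 40.6, 60.4 and 61.7 CPM in the Ventral libraries (-0.67 ± 0.18, adjusted p = 0.0130). Here Dorsal replicate 3 exceeded Ventral replicate 3, and the call was lost without Dorsal replicate 1 (-0.54).

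The remaining Q module members were not called. Ndufa9, which lies beside the ubiquinone site, had means of 58.9 ± 10.3 CPM in the Dorsal and 87.1 ± 14.6 CPM in the Ventral libraries (-0.57 ± 0.15, adjusted p = 0.0102). Ndufa6, one of the LYR-motif subunits that bind an acyl carrier protein, had means of 78.8 ± 7.58 and 109 ± 16.3 CPM (-0.47 ± 0.12, adjusted p = 0.0101). Both were lower in the Dorsal libraries at the adjusted p but below the fold limit. Ndufa5 was at 92.3, 103, 101, 86.8 and 95.9 CPM in the Dorsal and 104, 105, 122, 110.1 and 133 CPM in the Ventral libraries. These narrow groups did not overlap, yet the difference of -0.26 ± 0.11 missed the threshold (adjusted p = 0.0681).

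All 9 members of the proximal membrane arm were lower in the Dorsal libraries at an adjusted p below 0.05, and 5 were called ventral-enriched (median -0.62). Ndufa11 (ENSMUSG00000002379, chr17:56717767-56722141, plus strand), a membrane subunit at the contact of complexes I and III in supercomplexes, was at 14.3, 47.9, 39.2, 46.4 and 37.9 CPM in the Dorsal and 64.6, 77.7, 58.1, 77.04 and 76.6 CPM in the Ventral libraries (-0.90 ± 0.22, adjusted p = 0.00648). The groups were separated, with Dorsal replicate 1 again far below the rest, and without it the log2 fold change was -0.72. Ndufc2, a membrane subunit, was at 149, 123, 125, 145 and 146 CPM in the Dorsal and 216, 251, 243, 219 and 169 CPM in the Ventral libraries (-0.67 ± 0.12, adjusted p = 0.00110). Its groups did not overlap, and it was called under every alternative. Its neighbour in the complex, Ndufc1, was at 277, 286, 198, 242 and 256 CPM in the Dorsal and 691, 308, 379.7, 318 and 346 CPM in the Ventral libraries (-0.70 ± 0.20, adjusted p = 0.0164). Ventral replicate 1 was far above all other libraries, and without it the difference shrank to -0.42 and the call was lost.

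Ndufa8, which faces the intermembrane space and carries the paired-cysteine CHCH fold, was at 49.5, 66.7, 73.3, 70.1 and 82.03 CPM in the Dorsal and 86.4, 96.7, 175, 94.02 and 91.4 CPM in the Ventral libraries (-0.65 ± 0.19, adjusted p = 0.0201). Ventral replicate 3 was the high value here, and the call was lost without it (-0.43) and without Dorsal replicate 1 (-0.56). Ndufa10, a relative of deoxynucleoside kinases, was at 88.1, 77.7, 57.1, 73.9 and 64.5 CPM in the Dorsal and 118, 113, 79.6, 119 and 120.4 CPM in the Ventral libraries (-0.62 ± 0.14, adjusted p = 0.00552). In this gene Ventral replicate 3 was the low value and fell among the Dorsal libraries, and its call was lost in 10 of the 24 alternatives, among them without Dorsal replicate 3 (-0.53). Ndufs5, another CHCH subunit, was the lowest of the arm per kilobase, at 13.7, 11.9, 21.4, 15.8 and 15.4 CPM in the Dorsal and 18.6, 23.1, 21.1, 22.1 and 26.7 CPM in the Ventral libraries (-0.51 ± 0.18, adjusted p = 0.0411). Dorsal replicate 3 overlapped the Ventral range, and Ndufs5 was not called. Ndufa3, Ndufa13 (also known as Grim19) and the X-linked Ndufa1 likewise passed the adjusted p without reaching the fold limit, with log2 fold changes of -0.58, -0.52 and -0.37.

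In the distal membrane arm, 11 members were tested and all had a negative log2 fold change, 10 at an adjusted p below 0.05, while 4 were called ventral-enriched (median -0.52). Ndufab1 (ENSMUSG00000030869, chr7:122085403-122101886, minus strand), the mitochondrial acyl carrier protein, which also serves fatty acid synthesis, was at 40.003, 31.8, 32.99, 33.4 and 34.3 CPM in the Dorsal and 80.2, 55.3, 47.9, 62.3 and 60.5 CPM in the Ventral libraries (-0.85 ± 0.15, adjusted p = 0.000974). Ndufb8, often used as an antibody marker of assembled complex I, was at 28.5, 43.6, 43.1, 35.5 and 39.3 CPM in the Dorsal and 75.2, 66.96, 67.7, 74.2 and 58.2 CPM in the Ventral libraries (-0.84 ± 0.13, adjusted p = 0.000588). Neither gene overlapped between the groups, and both were called under every alternative. Ndufb6 was at 12.9, 22.4, 19.05, 17.4 and 19.1 CPM in the Dorsal and 28.2, 34.3, 27.98, 32.3 and 23.5 CPM in the Ventral libraries (-0.66 ± 0.17, adjusted p = 0.00901). Its groups were separated by little, and its call was lost without Dorsal replicate 1 (-0.57). Ndufb7, a CHCH subunit, was at 24.9, 88.3, 79.7, 64.1 and 68.2 CPM in the Dorsal and 80.4, 106, 131, 107 and 100.2 CPM in the Ventral libraries (-0.67 ± 0.23, adjusted p = 0.0392). Dorsal replicate 2 overlapped Ventral replicate 1, and the call was lost in 11 of the 24 alternatives, with -0.47 without Dorsal replicate 1.

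The other distal subunits differed less. Ndufb11, Ndufb4, Ndufb5, Ndufb2, Ndufb10 and the LYR-motif subunit Ndufb9 passed the adjusted p with log2 fold changes from -0.54 to -0.34 and were not called. Ndufb3 was at 219, 147, 179.8, 242 and 218 CPM in the Dorsal and 217, 312, 231, 218 and 188 CPM in the Ventral libraries. The groups overlapped widely, and this smallest difference of the 37 did not pass the test (-0.21 ± 0.15, adjusted p = 0.302). It was -0.11 without Dorsal replicate 2 and -0.087 without Ventral replicate 2. The mouse gene in the place of human NDUFB1 is annotated as Ndufb1-ps with a non-coding biotype, so that it is no member by the rule. It had 180 ± 10.7 CPM in the Dorsal and 246 ± 62.2 CPM in the Ventral libraries (-0.45 ± 0.14, adjusted p = 0.0253, not called).

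A further pair of genes carries the name but stands outside the modules. Ndufa4 was first described as a complex I subunit and is now counted with cytochrome c oxidase (complex IV). It was at 408, 389, 386, 361 and 376 CPM in the Dorsal and 451, 576, 871, 559.6 and 606 CPM in the Ventral libraries (-0.67 ± 0.14, adjusted p = 0.00303). The groups did not overlap, Ventral replicate 3 was the highest, and without it the difference was -0.51 and no longer called. Its hypoxia-inducible relative Ndufa4l2 was at 0, 0.195, 0.136, 0.0599 and 0.0784 CPM in the Dorsal and 0.665, 0.264, 0.337, 0.442 and 0.236 CPM in the Ventral libraries. All Dorsal values lie at or below 3 counts in their library and the highest Ventral value is 12 counts, so that Ndufa4l2 was left out by the filter and no fold is given.

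**Figure D2:**
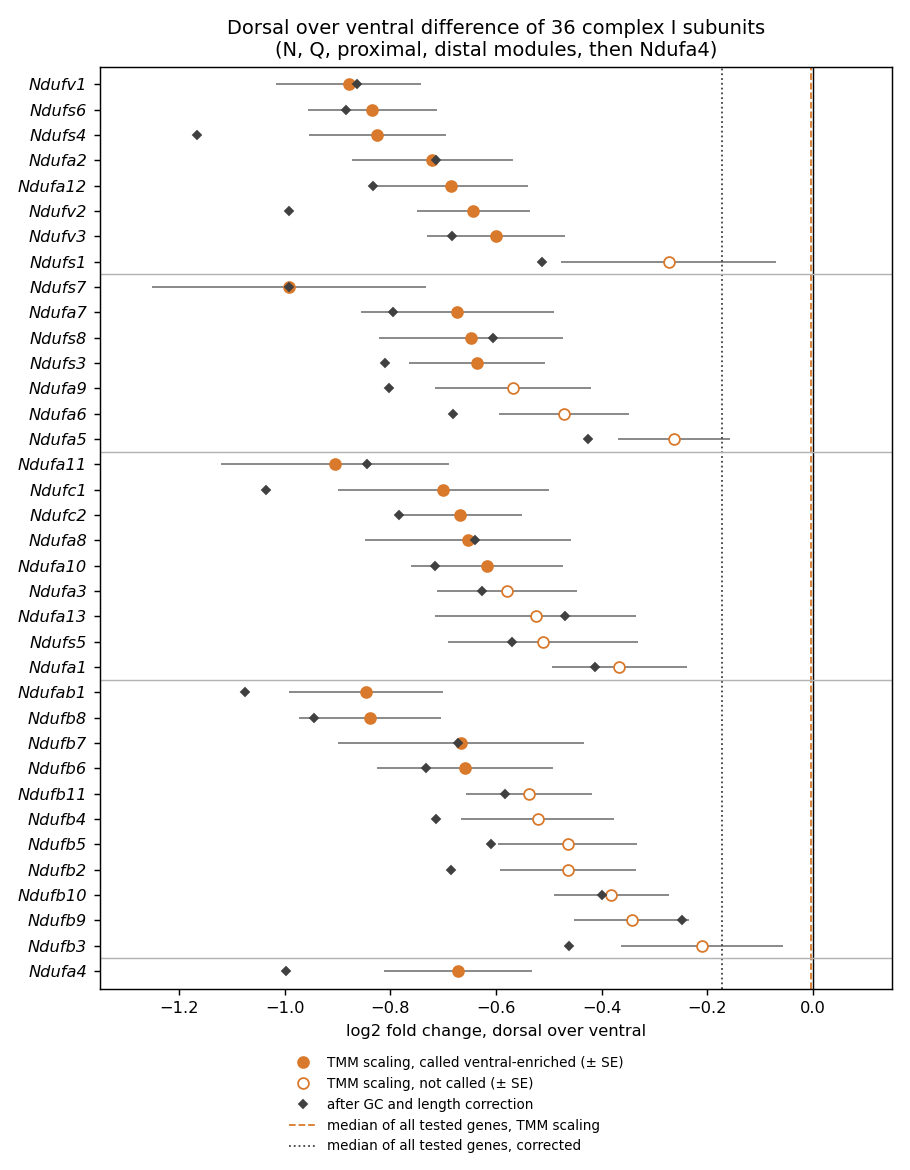
Log2 fold change, Dorsal over Ventral, of 36 tested complex I subunits by module (circles ± SE, filled where called ventral-enriched) and after correction for GC content and exonic length (diamonds), with dashed and dotted lines at the median of all tested genes in each fit. All circles and diamonds lie left of 0, and the 21 filled circles include 7 of the 8 N module genes and 4 of the 11 distal ones.

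By gene family, the medians were -0.62 for the 13 tested a members (7 called), -0.49 for the 10 b members (3 called) and -0.65 for the 8 s members (6 called). The 3 v members had a median of -0.64 and the 2 c members of -0.68, and all 5 were called, as was Ndufab1, the single ab member. The differences between modules and between families were not tested.

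Levels are comparable between genes only per length, here as CPM per kilobase of annotated exon. On that scale Ndufa4 was highest, at 278 ± 12.6 in the Dorsal and 444 ± 113 in the Ventral libraries (SD, n = 5). Ndufb3 followed with 263 ± 49.3 and 306 ± 61.1, and Ndufa1, Ndufc2 and Ndufc1 came next with 265, 291 and 273 CPM per kilobase in the Ventral libraries. In the Ventral libraries these 4 lay within the spread of each other. Within the modules the highest were Ndufa2 in the N module (99.6 ± 21.4 in the Dorsal and 165 ± 19.997 in the Ventral libraries), Ndufa5 in the Q module (92.9 ± 6.41 and 111 ± 12.03) and Ndufc2 in the proximal arm (183 ± 16.6 and 291 ± 42.5). The lowest were Ndufs1 (5.95 ± 0.464 and 7.14 ± 2.45), Ndufs3 (15.9 ± 1.19 and 24.6 ± 3.36), Ndufs5 (18.2 ± 4.15 and 25.9 ± 3.48) and Ndufab1 (5.01 ± 0.466 and 8.90 ± 1.75) in their respective modules. Ndufs1 and Ndufab1 have 8086 and 6883 bases of annotated exon but longest transcripts of 2661 and 3479 bases, which lowers them on this scale. Even so, these 2 genes lay at the 66.9th and 68.2nd percentile of all tested genes, and Ndufa4 at the 99.6th. Across the 37 members the log2 fold change had a Pearson's r of 0.15 and a Spearman's rho of 0.079 with the log2 level per kilobase, a description over genes that share the same 10 libraries.

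The median deviation of Dorsal replicate 1 was larger in GC-rich than in other members. Dorsal replicate 1 was the lowest Dorsal library for 14 members and the highest for 15, with almost no shift of the median (0.021 on the log2 scale). For the 6 members with at least 55% GC in their exons (Ndufa13, Ndufs7, Ndufa11, Ndufs8, Ndufv1 and Ndufb9) its median deviation from the other Dorsal libraries was -0.91, against 0.11 for the other members. Its deviation had a Pearson's r of -0.69 with GC content over the 37 members and of -0.25 over all tested genes. Ventral replicate 3 was the lowest Ventral library for 18 members, with a median deviation of -0.24. Without Dorsal replicate 1, 33 members still passed the adjusted p, with a median of -0.58 and 18 called, of which 16 were also called with it.

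**Figure D3:**
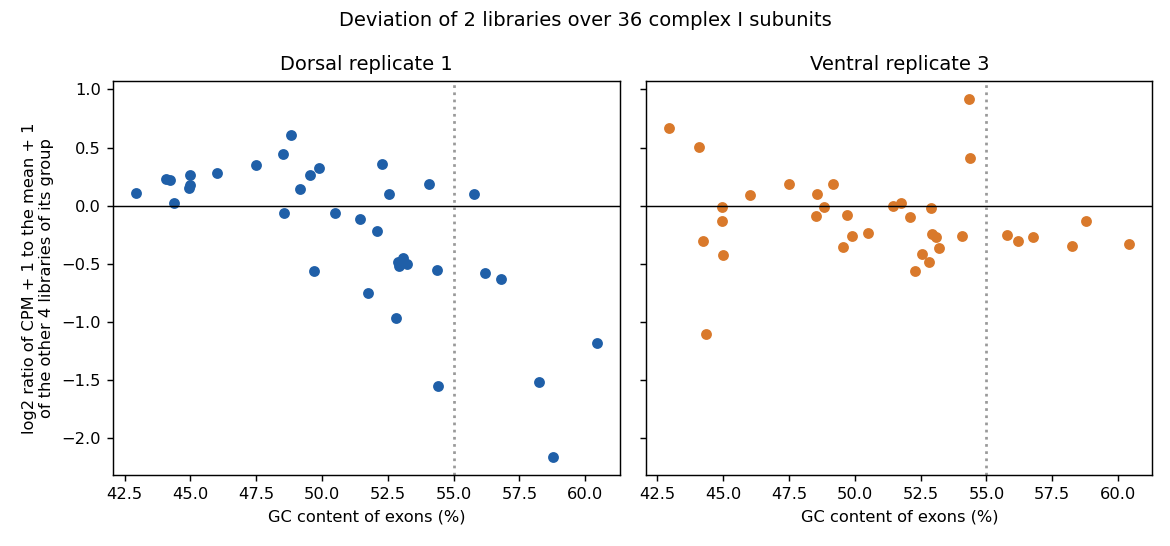
Deviation of Dorsal replicate 1 (left) and Ventral replicate 3 (right) from the other 4 libraries of their group, as a log2 ratio of CPM plus 1, against the GC content of the exons (%) of 36 tested complex I subunits, with a dotted line at 55%. The lowest blue point is that of Ndufs7, right of the line, but low blue points of Ndufb7, Ndufa7 and Ndufa2 lie left of it. The blue point of Ndufb9, right of the line, lies above 0, and most orange points lie below 0.

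A correction of each library for GC content and exonic length moved the median of all tested genes from -0.0044 to -0.17 and turned the split of calls from 1655 ventral-enriched and 2636 dorsal-enriched to 3009 and 1990. Under it the members had a median of -0.71, which is -0.54 relative to the median of all genes and compares with -0.64 relative to it before. All 37 members stayed below that shifted median, 33 passed the adjusted p and 28 were called, the 22 among them. Over the members, the uncorrected log2 fold change had a Pearson's r of -0.29 (Spearman's rho -0.23) with GC content and of -0.11 (rho -0.097) with log2 exonic length.

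Whether the counting used strand, and which annotation release it used, is not given in the sources used here, and some members share sequence with other genes. Exons of 17 members overlap another gene, by as much as 39.0% in Ndufb6 (Smim27, opposite strand), 29.98% in Ndufa13 (Tssk6, opposite strand) and 19.5% in Ndufb9 (same strand). Windows of 50 exonic bases are also found in processed pseudogenes or other genes for part of Ndufs5 (21.7%), Ndufb4 (18.3%), Ndufs3 (17.9%), Ndufa12 (17.7%) and Ndufb11 (17.5%). The values of these 8 genes are therefore uncertain in part. Among the 21 members without exonic overlap the median was -0.65 with 14 called, and among the 14 tested members without any shared window it was -0.64 with 9 called.

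The promoters of the members were read from RefSeq (GRCm38.p6) as windows of 250 bases before and 50 bases after the start of transcription. Windows were found for 33 of the 38 members (35 windows), and Ndufa2, Ndufa4l2, Ndufb9 and Ndufs1 are among those with no entry. The median GC content of the member windows was 59.0% and their median number of CpG dinucleotides 20, against 52.7% and 7 over all 32851 promoter windows. Letters of 5 motifs of factors linked to respiratory genes were searched on both strands. The YY1 core AAGATGGC was in 7 of the 35 windows (20%), against 2.75% of all windows. In all 7 it is read in the direction of the gene, between 23 and 39 bases into the transcript, and its ATG is the start codon annotated in GENCODE M21. Matches of different motifs shared letters in 1 of the 35 windows. Over all windows, 0.865% held the letters in that direction after the start. The stretches of 30 bases around these matches are shown because the same letters hold the start codon in genes of the N, Q, proximal and distal modules. They are written 5′ to 3′ on the strand of the gene, with the core in capitals.
Ndufa3 (chr7:3617384-3617413, plus strand): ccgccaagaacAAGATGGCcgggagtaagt
Ndufa9 (chr6:126849097-126849126, minus strand): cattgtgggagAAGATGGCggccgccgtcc
Ndufb8 (chr19:44555393-44555422, minus strand): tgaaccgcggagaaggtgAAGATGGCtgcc
Ndufc1 (chr3:51408915-51408944, minus strand): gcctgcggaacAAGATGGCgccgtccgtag
Ndufs4 (chr13:114388045-114388074, minus strand): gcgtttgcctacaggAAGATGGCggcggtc
Ndufs6 (chr13:73328433-73328462, minus strand): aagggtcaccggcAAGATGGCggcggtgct
Ndufs7 (chr10:80249462-80249491, plus strand): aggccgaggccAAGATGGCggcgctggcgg

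Of these 7 genes, Ndufs7, Ndufs6, Ndufs4, Ndufb8 and Ndufc1 were called ventral-enriched, and Ndufa3 and Ndufa9 passed the adjusted p without the fold limit. Among all 37 tested members 22 were called and 34 passed the adjusted p, and a link of the motif to the calls was not tested. The NRF1 core GCGCATGC, part of a palindrome that nuclear respiratory factor 1 binds, was in 3 of the 35 windows (8.57%), against 2.71% of all windows. They belong to Ndufa11, Ndufa8 and Ndufa6, and the matches lie 60, 8 and 83 bases before the start. In Ndufa11 the core is found on both strands, so that both matches overlap in 1 palindrome. Its 250 bases before the start (chr17:56717512-56717761, plus strand) are shown whole, with the palindrome in capitals, as the promoter of the member with the second largest fold change.
Ndufa11: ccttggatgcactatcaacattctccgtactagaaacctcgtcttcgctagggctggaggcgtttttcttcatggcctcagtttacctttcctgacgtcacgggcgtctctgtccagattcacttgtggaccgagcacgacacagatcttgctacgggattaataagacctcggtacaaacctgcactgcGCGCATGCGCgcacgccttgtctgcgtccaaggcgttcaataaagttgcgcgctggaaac
The stretches of 30 bases around the other NRF1 matches, on the opposite strand, are given for comparison.
Ndufa6 (chr15:82354356-82354385, minus strand): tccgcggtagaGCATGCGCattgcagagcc
Ndufa8 (chr2:36049328-36049357, minus strand): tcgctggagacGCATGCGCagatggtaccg

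The remaining motifs were closer to their share in all windows. The ETS core CCGGAAG was in 11.4% of member and 8.86% of all windows, the ERR half-site AAGGTCA in 8.57% and 4.72%, and the Sp1 box GGGCGG in 45.7% and 35.7%. These matches describe letters in the windows, and binding of the factors was not measured. For 15 of the 38 members (39.5%) the start of another protein-coding gene lay on the opposite strand within 500 bases, against 8.89% of all protein-coding genes. Of the 13 such neighbours that were tested, 10 had a negative log2 fold change, with a median of -0.11. Ventral-enriched were 2 of the 13, near the 9.85% of all tested genes, namely Ik beside Ndufa2 (-0.69 ± 0.11, adjusted p = 0.000609) and Wdr4 beside Ndufv3 (-1.28 ± 0.29, adjusted p = 0.00484).

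Factors that assemble complex I without staying in it were lower in part. Of 20 tested assembly factors, 18 had a negative log2 fold change (median -0.48), 9 were lower in the Dorsal libraries at an adjusted p below 0.05 and 4 were ventral-enriched, against 14.6% and 9.85% of all tested genes. The 4 were Ndufaf7, a methyltransferase (27.1 ± 4.55 CPM in the Dorsal and 46.6 ± 3.91 CPM in the Ventral libraries, -0.79 ± 0.14, adjusted p = 0.00106), Ndufaf3 (20.7 ± 3.63 and 34.8 ± 2.19 CPM, -0.73 ± 0.14, adjusted p = 0.00215), Ndufaf5, which modifies Ndufs7 (34.0 ± 6.83 and 53.6 ± 5.79 CPM, -0.66 ± 0.15, adjusted p = 0.00435) and Ndufaf2 (33.2 ± 2.22 and 52.0 ± 3.37 CPM, -0.64 ± 0.11, adjusted p = 0.00108). All 4 were separated between the groups. Ndufaf4, the partner of Ndufaf3, was not called (-0.21 ± 0.12, adjusted p = 0.198). The values above 0 were those of Ndufaf8, the partner of Ndufaf5 (0.050 ± 0.18, adjusted p = 0.852), and Ndufaf1, a factor of the membrane arm (0.054 ± 0.22, adjusted p = 0.869), which did not pass the test.

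The subunits encoded by the mitochondrial genome went the other way. The mt-Nd genes are transcribed and translated inside the mitochondrion, on ribosomes that do not carry the tag. Of the 7, mt-Nd3 and mt-Nd4l had at most 1 count in any library, and the other 5 were all dorsal-enriched, against 15.7% of all tested genes, with a median log2 fold change of 2.09. mt-Nd5 was at 787, 951, 616, 836 and 733 CPM in the Dorsal and 136, 103, 302, 146 and 206 CPM in the Ventral libraries (2.14 ± 0.23, adjusted p = 4.03e-05). Every Dorsal library lay above every Ventral library, of which replicate 3 was the highest. Summed over the 7 genes, the level was 1920 ± 242 CPM in the Dorsal and 475 ± 203 CPM in the Ventral libraries (SD, n = 5, exact permutation p = 0.00794). With the correction for GC content and length the median was 0.38 (0.55 relative to all genes), and mt-Nd1 and mt-Nd5 alone of the 5 still passed the adjusted p, so that the size of this difference depends on the correction.

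**Figure D4:**
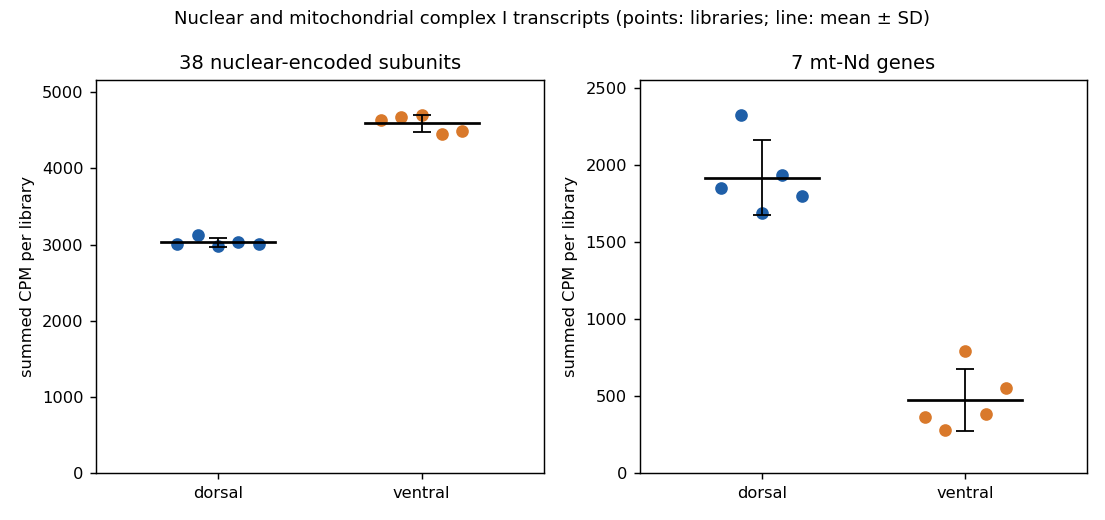
Summed CPM per library of the 38 nuclear-encoded complex I subunits (left) and of the 7 mt-Nd genes (right), with points for libraries and lines for the mean ± SD of 5. The nuclear sums of the Dorsal libraries (2976 to 3127 CPM) lie below those of the Ventral libraries (4454 to 4696 CPM), and the mt-Nd sums lie above them.

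Among 8 regulators of mitochondrial biogenesis, with TMM scaling only Nrf1, which encodes nuclear respiratory factor 1, passed the adjusted p, and it was higher in the Dorsal libraries (22.8 ± 6.07 against 12.5 ± 1.07 CPM, 0.84 ± 0.21, adjusted p = 0.00798). Dorsal replicate 2 was at 12.5 CPM and fell within the Ventral range of 11.4 to 14.1 CPM. Yy1 had 79.5 ± 12.5 CPM in the Dorsal and 79.9 ± 8.60 CPM in the Ventral libraries (-0.0028 ± 0.13, adjusted p = 0.990). Ppargc1a, the coactivator PGC-1α, had 174 ± 16.7 and 204 ± 8.24 CPM, did not overlap between the groups and missed the threshold (-0.23 ± 0.094, adjusted p = 0.0684). With the correction for GC content and length, Ppargc1a (-0.46, adjusted p = 0.00214) and Tfam, the mitochondrial transcription factor (-0.56, adjusted p = 0.00852), passed the adjusted p as lower and Nrf1 (0.77, adjusted p = 0.0111) and Pprc1 (0.57, adjusted p = 0.0249) as higher in the Dorsal libraries.

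Most nuclear subunits of the other respiratory complexes were lower in the Dorsal libraries as well. Of 44 tested nuclear subunits of complexes II to V, 43 had a negative log2 fold change, 33 at an adjusted p below 0.05, and 17 were ventral-enriched, against 9.85% of all tested genes. Their medians were -0.37 for complex II, -0.68 for complex III, -0.47 for complex IV and -0.56 for complex V, beside -0.64 for complex I. Of 76 tested mitochondrial ribosomal proteins, which build the machinery that translates the mt-Nd transcripts, 39 were lower at an adjusted p below 0.05 and 21 were ventral-enriched (median -0.46). With TMM scaling, 34 of 37 complex I members passed the adjusted p as lower, against 33 of 44 and 39 of 76 in these lists. With the correction for GC content and length these counts were 33, 37 and 50, beside 4219 of 16795 tested genes. The corrected medians relative to all genes were then -0.54, -0.53 and -0.41. Complex I was thus close to complexes II to V after the correction, and differences between the lists were not tested.

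**Figure D5:**
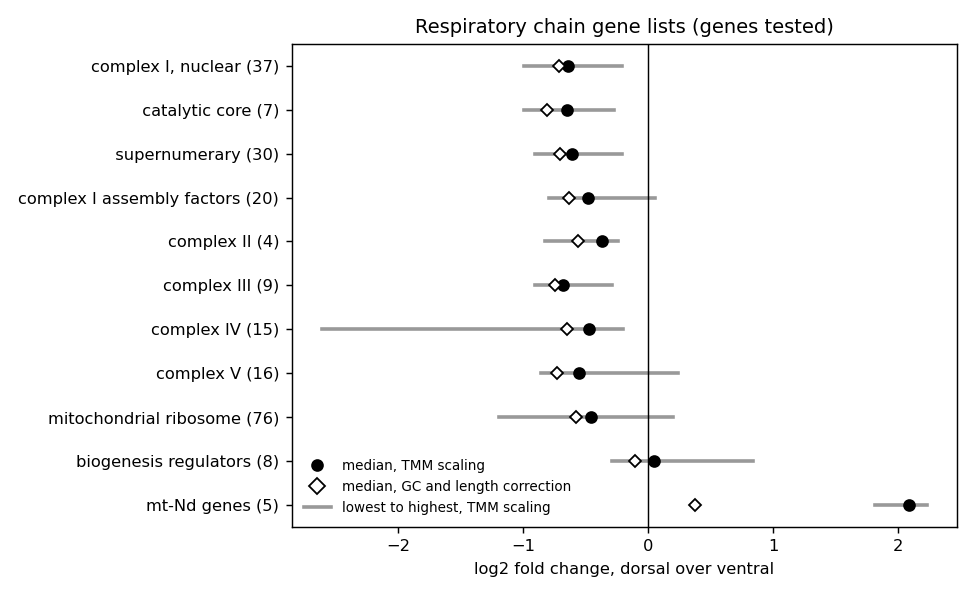
Median (filled circles) and range (grey bars) of the log2 fold change, Dorsal over Ventral, in each list of respiratory chain genes, with the number of tested genes in parentheses and the median after correction for GC content and length (open diamonds). The medians of the nuclear-encoded complexes lie between -0.37 and -0.68, and the mt-Nd median lies at 2.09 before and 0.38 after the correction.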

How the data were processed

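After amplification of the precipitated RNA, the authors obtained read pairs of 50 bases, mapped them to GRCm38 by STAR 2.5.2b and assigned them to Ensembl genes by HTSeq 0.7.2 (versions as given in the submitters' processing notes). The deposited files hold whole-number gene counts, 1 file for each of the 10 libraries, which the authors had neither normalized nor filtered. From these counts, CPM with TMM scaling, the filter (CPM above 1 in at least 2 libraries), and the quasi-likelihood test of edgeR 4.0.16 (R 4.3.3) with Benjamini-Hochberg adjustment over 16806 genes were computed. The filter, the test and the adjusted p limit follow the study's methods, which name no scaling, and TMM was chosen here. A call needed an adjusted p below 0.05 and a log2 ratio of mean CPM plus 1 beyond 0.58, whereas the study's limit was on the log2 fold change. With 1655 ventral-enriched and 2636 dorsal-enriched genes, more were called here in each direction than the study reported. The reason was not tested. The SE was derived from the log2 fold change and the root of its F statistic. Summary lines of the count files were left out of library sizes. Symbols, coordinates and exons came from GENCODE M21. Floors cover counting error only, because amplified reads carry no molecular identifiers and are not independent. Replicates are pools, so p-values measure the spread between pools. The main test treats Dorsal and Ventral pools as unpaired, although by the study's numbers both groups drew on the same mice. Single library measures were compared by two-sided exact permutation tests.

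Values in every library are given for the core subunits, for called members, for the largest and smallest changes, for the highest and lowest levels of each module and for members that lose their call without 1 library. Of the 38 members, 1 is counted but not reported here. Yy1, Gad2, Ndufaf4 and Ndufb1-ps fall outside that rule and were named after their values were seen. The members and lists were chosen with earlier results of these data known. The fits were tested on simulated data. As alternatives served upper-quartile factors, total counts and DESeq2's size factors, no filter and CPM above 1 in 5 libraries, DESeq2 1.42.0, the likelihood-ratio test, edgeR's own fold change for the limit, an adjusted p below 0.01, the replicate number as a block, a GC and length correction (mgcv 1.9.3), both together, protein-coding nuclear genes only, each library left out and, added after the data were seen, the quasi-likelihood dispersions of edgeR 3. Imaging, in situ hybridization and PCR data were not used here.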

Additional observations from a re-analysis of the deposited data

Results flagged for a closer look

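In 6 of 74 groups of 5 libraries, the Dorsal and the Ventral libraries of each of the 37 tested members, 1 library's gap to the nearest other library exceeded 0.71 of the range of its group, and chance gives about 1 such group in 20. In Dorsal replicate 1, Ndufs6 was at 41.9 CPM beside 58.4 to 62.3 CPM in the other Dorsal libraries, and leaving that library out gave a log2 fold change of -0.75 (adjusted p = 0.000287, edgeR). In the same library Ndufa13 was at 60.005 CPM beside 127 to 153 CPM, and without it the difference was -0.36 (adjusted p = 0.0332). Another 3 such values come from Ventral replicate 3. There Ndufa8 was high, at 175 CPM beside 86.4 to 96.7 CPM in the other Ventral libraries (-0.43 without it, adjusted p = 0.0251). Ndufa10 was low, at 79.6 CPM beside 113 to 120.4 CPM (-0.71 without it, adjusted p = 0.00129), and so was Ndufv3, at 82.9 CPM beside 105 to 109.7 CPM (-0.66 without it, adjusted p = 0.00199). In Ventral replicate 1, Ndufc1 was at 691 CPM beside 308 to 379.7 CPM (-0.42 without it, adjusted p = 0.0170). Their causes were not tested.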

How the results depend on the processing

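Over the 37 tested members and 24 alternatives, no log2 fold change reversed, 815 of the resulting values kept their direction and side of the call limits, 49 lost and 24 gained a call. The number of ventral-enriched members was 22, from 16 with the adjusted p limit at 0.01 to 28 with the GC and length correction, and 18 to 23 without 1 library. Of all tested genes, 9.85% were ventral-enriched in the main fit, 5.34% with the limit at 0.01 and 17.9% with the GC and length correction. Members lower in Dorsal libraries at the adjusted p were 34, from 30 to 34 in the other alternatives that keep all libraries and this limit, 18 with the limit at 0.01 and 27 to 33 without 1 library. Dorsal-enriched members were 0 throughout (0 to 0 without 1 library). The median of -0.64 stayed from -0.64 to -0.58 without 1 library and moved to -0.74 with the GC and length correction with replicate block, where the median of all tested genes was -0.18. With the replicate block alone it was -0.63, with 22 members called and 31 past the adjusted p. By the study's numbers of mice and pools, both groups drew on the same mice, and the labels do not say which pools match. Same-numbered deviations correlated by 0.016 on average, and 3 of 10 libraries fitted best with their own number. These values concern the replicate numbers alone and cannot show that the pools were unpaired. Called assembly factors were 4, 10 with the GC and length correction, 10 with that correction and replicate block, and 3 to 7 without 1 library, with 7 without Dorsal replicate 1. The corrected fits called 17.9% and, with replicate block, 18.2% of all tested genes ventral-enriched. The causes were not tested. Precision is limited by 5 pools in each group and, for Ndufa4l2, by depth.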
